A study of Mus musculus with 17 samples.

Results

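The epithelial sort of the lacrimal gland, 3 arrays, was compared with the lymphocytes sorted from the same gland, 4 arrays of B cells and 4 of CD4 T cells. These 11 arrays were chosen by the group in their titles, out of 17 in the series. For each of 17097 genes the difference was the epithelial mean minus the mean of the B cell and CD4 T cell group means, on the log2 scale of the deposited values. All gland cells came from male NOD mice of 16 weeks, a strain that develops spontaneous autoimmune inflammation of the tear and salivary glands and serves as a model of Sjögren's syndrome. No other allele and no treatment is given for any group. Glands were broken up mechanically and with enzymes, and cells were sorted straight into lysis buffer, at a stated purity above 99%. Epithelial cells were gated as negative for CD45, the antigen of all leukocytes, and positive for CD326, the adhesion molecule encoded by Epcam. B cells were gated as CD45+ NKp46- CD11b- CD11c- B220+ CD3- and CD4 T cells as CD45+ NKp46- CD11b- CD11c- CD3+ CD4+ without B220, with DAPI marking dead cells. Another 6 arrays, 3 of B cells and 3 of CD4 T cells from spleen, entered the estimate of the spread and served as a second reference. Their age is 16 weeks in the sample labels and 4 weeks in the series description, and enzyme digestion is described only for the gland. No source used here says whether arrays came from separate or pooled mice, so p-values measure only the spread between arrays, which may be technical.

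The lacrimal gland makes the watery layer of the tear film. Acinar cells release proteins such as lactoferrin, peroxidase and odorant-binding proteins by exocytosis, mostly in answer to acetylcholine and noradrenaline from nerves, and move salt and water through channels and aquaporins. Ducts alter the fluid and carry it away, and contractile myoepithelial cells, which lie between the acini and the basement membrane, squeeze it out. The CD326 gate does not separate these epithelial kinds from one another. In a sorted bulk sample, fewer cells of a type and less RNA per cell cannot be told apart.

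The lowest deposited value was 0.49, the highest 12.95 and the median 4.71, and no detection calls come with them. A fold against a level under that median is therefore a ratio of deposited values, and whether that level lay above background was not measured. Arrays of 1 group correlated at 0.986 to 0.996 for gland B cells, 0.989 to 0.996 for gland CD4 T cells and 0.976 to 0.988 for the epithelial sort. Epithelial array 1 stood apart: it held leukocyte genes, with 355 genes at least 1 log2 unit above both other epithelial arrays, against 59 and 66 for arrays 2 and 3. A small set of salivary-type secretory genes was high in epithelial arrays 1 and 2. It was low in array 3 and in most gland lymphocyte arrays. Both are described below. Without array 1 the counts over all genes are given beside the others, and list counts for which no such value is given moved by at most 1 gene. Each gene was read from 1 probe set, and averaging a gene's probe sets moved the difference of 69 of 266 named and called genes by over 1.5 times and ended 10 of those calls. For example, Acta2 went from 82.1-fold to 14.9-fold, Marveld3 from 52.6-fold to 10.2-fold and Tac1 from 32.7-fold to 6.11-fold, each still called.

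All 3 markers of the label were high in the sort. Epcam stood at 10.46, 10.81 and 10.77 in the 3 epithelial arrays and from 5.8 to 6.8 with a median of 6.49 in the 8 gland lymphocyte arrays. Its difference was 4.27 ± 0.12 (SE), or 19.2-fold (adjusted p = 5.99e-14). The gate itself selected cells for the Epcam product, so this difference is no independent support for the label. Krt18, a keratin of simple epithelia, stood at 11.92, 12.12 and 12.14 in the sort and from 8.2 to 8.96 with a median of 8.59 in lymphocytes, 10.9-fold apart (adjusted p = 2.97e-12). Cldn7, a claudin of tight junctions, stood at 9.82, 10.25 and 10.51 against 4.52 to 6.05, 29.5-fold apart (adjusted p = 7.29e-11). None of the 3 markers overlapped between the sort and the lymphocytes. Their lymphocyte levels in the gland were above those in spleen, where Krt18 ran from 4.16 to 4.79 and Cldn7 from 2.55 to 3.21, a point taken up with the second reference. Ptprc, the CD45 gene, stood at 9.62, 2.42 and 2.36, so that array 1 approached the lymphocyte range of 10.82 to 10.98 and the others lay far under it. The macrophage integrin gene Itgam, for CD11b, stood at 2.43, 2.26 and 2.52 in the sort and 2.41 to 2.64 in lymphocytes. All of these lie under the median of all values, so Itgam says little about myeloid RNA. The myeloid marker list, which was raised in array 1, is given further below.

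**Figure D1:**
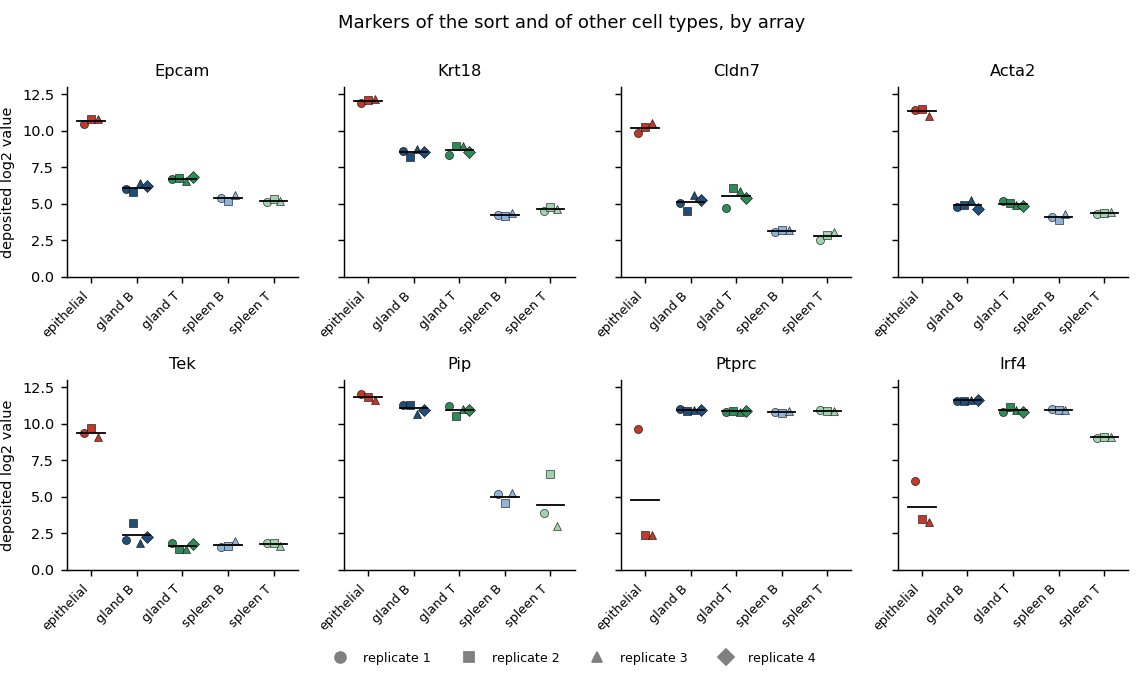
Deposited log2 values of 8 genes in each array (y axis) by group (x axis); each point is 1 array, its shape the replicate number, and the bar the group mean. Epcam, Krt18, Cldn7, Acta2 and Tek are high in all 3 epithelial arrays, Pip is nearly as high in gland lymphocytes in the probe set used, and Ptprc and Irf4 are raised in epithelial array 1.

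In the fit, 2540 genes were higher in the sort and 1677 lower, which is 14.9% and 9.81% of the genes tested. Each list count given here is to be read beside these shares. A call needed an adjusted p under 0.05, a change of at least 2-fold and an epithelial mean above, or below, both lymphocyte means. Without epithelial array 1 the counts were 2597 and 1773, or 15.2% and 10.4% of genes, and 2471 of the higher and 1608 of the lower genes were called both ways. Another 137 genes passed the contrast with an epithelial mean between those of B cells and CD4 T cells, and are not counted. Increases were also the larger ones: 422 genes were at least 16-fold higher and 120 at least 16-fold lower, and 35 were at least 64-fold higher. Without array 1 these were 433, 177 and 41. The 3 epithelial and 8 lymphocyte arrays did not overlap for 2443 of the higher and 1448 of the lower genes, and without array 1 for 2510 and 1636. Genes without a call were not counted in this way. A call already asks for a large gap, so these counts add nothing to the calls. The median difference over all genes was -0.10.

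The largest increases over gland lymphocytes held no keratin and no tear protein. Of the top 20, 2 were also in the top 20 over spleen lymphocytes. The 20 named by size were Cavin2, Gask1b, Tek, Cav1, Flt1, Adgrl4, Col4a2, Col4a1, Thbd, Adamts9, Plvap, Emcn, Exoc3l2, Cd34, Rbp7, Pmp22, Ptprb, Mmrn2, Tpm2 and Pgm5. Cavin2, a coat protein of caveolae, stood at 10.11, 10.47 and 10.06 in the sort and from 2.21 to 3.24 with a median of 2.54 in lymphocytes, a difference of 7.61 ± 0.15 (SE) and 195-fold (adjusted p = 1.09e-15). With its probe sets averaged Cavin2 was 45.6-fold higher. Tek, the angiopoietin receptor of endothelium, stood at 9.39, 9.72 and 9.07 against 1.45 to 3.19 with a median of 1.85, 169-fold apart (adjusted p = 7.9e-14). Flt1, a receptor for vascular endothelial growth factor, stood at 10.48, 10.50 and 10.90 against 3.03 to 3.84 with a median of 3.36, 149-fold apart (adjusted p = 9.19e-15). All 3 epithelial arrays were high for each, including arrays 2 and 3, and no lymphocyte array came near them. The 20 were taken only from genes without overlap between these arrays, so this separation was set by the choice. Tek, Flt1, Plvap and Emcn belong to the endothelial marker list. Plvap, which forms the diaphragms of fenestrated vessels, stood at 9.73, 10.65 and 9.84 against 2.81 to 3.98, and Thbd, the anticoagulant receptor thrombomodulin, at 10.98, 10.71 and 10.91 against 2.95 to 5.53. Cav1, which builds caveolae in endothelium and in myoepithelium, was 160-fold higher (adjusted p = 5.03e-15).

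Of 18 endothelial markers, 14 were higher in the sort and 0 lower, with a median difference of 4.34. The mean level over the list was 7.84, 8.3 and 7.88 in the epithelial arrays, 4.11 to 4.46 in gland B cells, 3.97 to 4.01 in gland CD4 T cells and 4.04 to 4.15 in spleen. Kdr, the main vascular growth factor receptor, stood at 8.98, 9.2 and 8.91 against 3.05 to 4.2 (44.2-fold, adjusted p = 2.65e-14), Sox17, an arterial transcription factor, at 6.83, 7.56 and 6.91 against 1.39 to 1.71, and Cdh5, the cadherin of endothelial junctions, at 6.22, 7.26 and 5.92 against 2.62 to 3.71. The other 4 members, Pecam1, Cldn5, Ramp2 and Lyve1, were not called, though Ramp2 was higher with its probe sets averaged (3.21-fold). Pecam1, which leukocytes also carry, stood at 7.06, 7.34 and 7.03, inside the lymphocyte range of 5.92 to 7.88, and Cldn5, a claudin of vessel junctions, at 4.29, 4.48 and 4.2 against 3.4 to 4.13. Lyve1 of lymphatic vessels stood at 3.77, 3.73 and 3.88 against 3.87 to 4.06. Cldn5 and Lyve1 lay under the median of all values in every epithelial array. The part of endothelial RNA in the increases was not tested.

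Other non-epithelial markers moved with the sort too. Of 16 fibroblast and stromal markers, 10 were higher and 1, the filament gene Vim, lower (median 2.98), with a mean level of 6.68, 6.84 and 6.96 in the epithelial arrays and 4.09 to 4.27 and 4.46 to 4.57 in gland B and CD4 T cells. Among them the collagen gene Col3a1 was 60.3-fold higher (adjusted p = 3.31e-15), and the matrix genes Postn and Dcn were 48.4-fold and 31.2-fold higher. Col1a1 was highest in array 3, at 7.09, 7.5 and 8.17, and so was Dpt, a matrix protein of fibroblasts, at 6.45, 7.06 and 8.28. The stromal receptor genes were not called. Pdgfrb was at 6.05, 6.2 and 6.14 against 5.6 to 5.94, and Pdgfra at 3.01, 4.29 and 3.21, under the median of all values. Of 5 red cell markers, Hba-a1 and Alas2 were higher, Hba-a1 at 10.73, 11.01 and 11.19 against 5.38 to 7.74, while Slc4a1, Epb42 and Gata1 were not called. Of 7 fat cell markers 1 was higher, 14.3% against 14.9% of all genes. This was Fabp4, which endothelium also makes, at 71.2-fold. The fat-specific Adipoq stood at 2.29, 2.02 and 2.14 against 2.06 to 2.97. Of 8 Schwann and nerve markers 3 were higher, Pmp22, Sox10 and Ncam1, the last not with its probe sets averaged (1.28-fold). The part of these cells' RNA in the results was not tested.

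**Figure D2:**
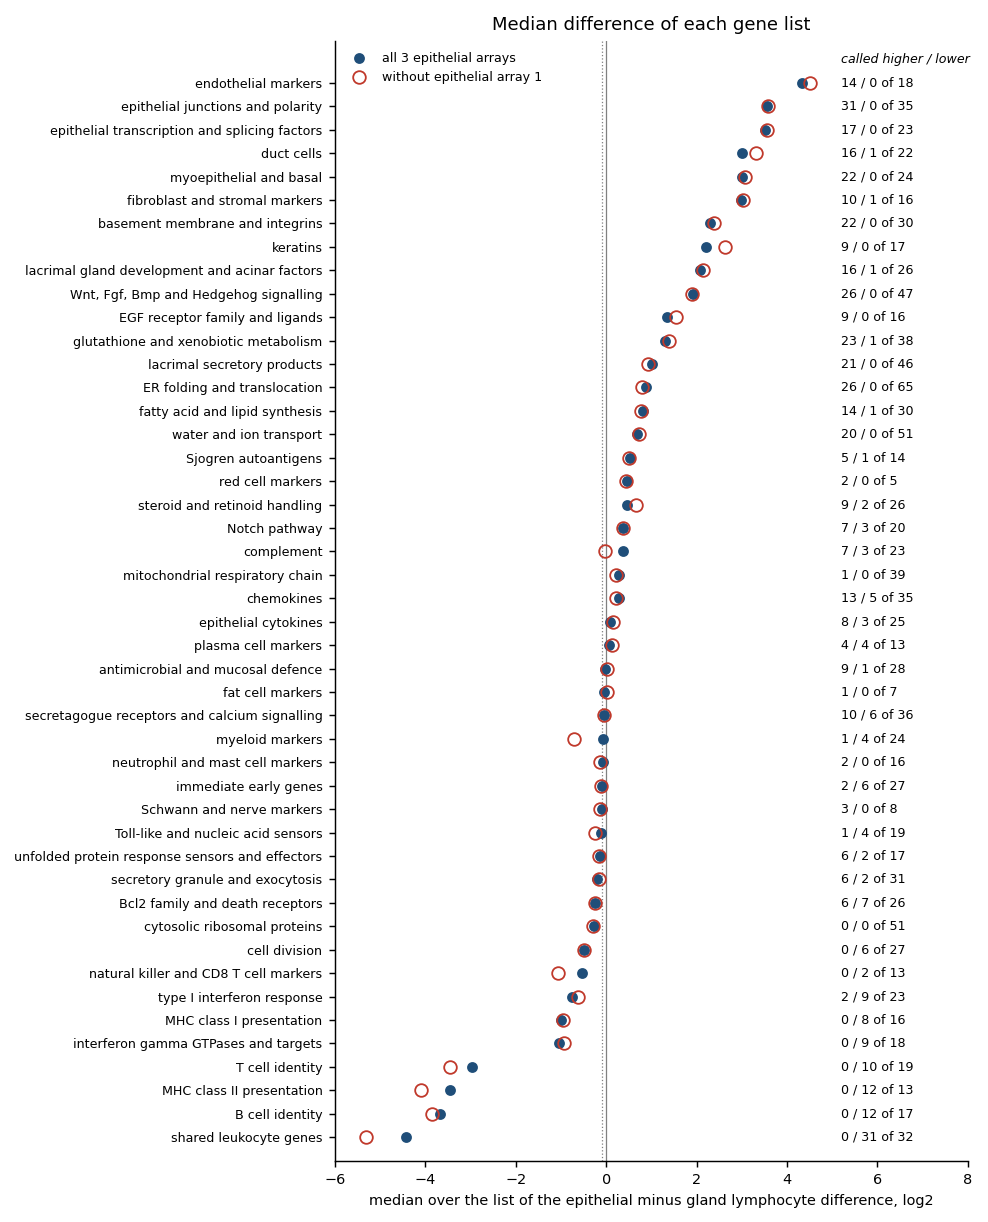
Median difference between the epithelial sort and gland lymphocytes for each of 46 gene lists, on the log2 scale (x axis), with all 3 epithelial arrays (filled) and without array 1 (open); the dotted line is the median of all genes. Numbers give the genes called higher and lower of those measured. Endothelial markers have the highest median, 4.34, and shared leukocyte genes the lowest, -4.43.

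Of genes of epithelial junctions and polarity, 31 of 35 were higher and 0 lower, with a median difference of 3.56. Cldn8, a claudin that limits ion passage between cells, stood at 9.94, 10.16 and 10.23 against 2.46 to 4.82 with a median of 4.03, 75.8-fold apart (adjusted p = 7.3e-11). Dsc2, a desmosomal cadherin, stood at 9.64, 9.87 and 9.63 against 3.25 to 4.24 (62.2-fold), and Marveld3 of the tight junction was 52.6-fold higher. The scaffold gene Tjp1 stood at 9.61, 9.84 and 9.58 against 4.29 to 4.82, while its relative Tjp3 missed the fold minimum at 1.94-fold (adjusted p = 9.22e-06). Llgl2 and Crb3, which set apical-basal polarity, were within 1.25-fold and 1.04-fold. Cdh1, the epithelial cadherin, stood at 9.94, 10.21 and 10.28 against 5.81 to 7.18.

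Of 17 keratins, 9 were higher and 0 lower (median 2.21). The increases covered both basal and simple keratins. The basal pair Krt14 and Krt5 stood at 9.33, 9.78 and 10.47 and at 9.26, 9.8 and 10.16, 54-fold and 22.6-fold above lymphocytes. The simple keratins Krt7 and Krt8 stood at 8.93, 9.67 and 9.84 and at 11.21, 11.59 and 11.37, 24.5-fold and 16.9-fold above them, and Krt23 was 32.4-fold higher. Krt6a and Krt16, keratins of injured or proliferating skin, were at 4.27, 3.96 and 4.4 and 3.79, 3.83 and 4.05, all under the median of all values.

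Of 23 epithelial transcription and splicing factors, 17 were higher and 0 lower (median 3.51). Tfap2b and Tfap2c, of the AP-2 family, were 65.9-fold and 45-fold higher, with Tfap2c at 10.16, 10.23 and 10.07 against 4.21 to 5.0. Trp63, the p63 gene of basal epithelial cells, stood at 9.84, 9.79 and 10.13 against 4.36 to 5.18 (39.8-fold, adjusted p = 1.99e-14), and Elf5 at 9.3, 9.46 and 9.45 against 3.61 to 4.92. Klf4 was not called, at 9.85, 10.07 and 10.01 in the sort, 9.81 to 10.30 in gland B cells and 8.94 to 9.6 in gland CD4 T cells. Of 26 factors of lacrimal gland development and acinar fate, 16 were higher and 1 lower (median 2.08). Pax6, the master regulator of eye tissues, stood at 10.20, 10.18 and 10.29 against 4.94 to 5.27 (34.3-fold, adjusted p = 4.48e-16). Foxc1 and Foxc2 were 43.8-fold and 44-fold higher. Fgfr2, the receptor through which Fgf10 starts gland budding, stood at 8.59, 8.83 and 8.94 against 2.33 to 3.81, 62.9-fold apart. Sox9, which acts downstream in gland branching, was 18.5-fold higher, and Bhlha15, the acinar factor Mist1, stood at 11.14, 10.79 and 10.65 against 5.63 to 8.12 (13.1-fold, adjusted p = 1.39e-06). Runx1 and Msx2 were not called. With probe sets averaged the differences of Trp63, Pax6 and Fgfr2 were 1.72, 2.75 and 2.58 in place of 5.31, 5.1 and 5.97, and each was still called. That of Sox9 was 1.74 in place of 4.21, also still called.

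Several tear protein genes had high levels in the gland lymphocyte arrays too. Of 46 lacrimal secretory products 21 were higher and 0 lower, with a median difference of 1.02. Scgb1b2, a secretoglobin of tears, stood at 12.68, 12.59 and 12.55 in the sort and at 11.72 to 12.26 in gland B cells and 11.58 to 12.33 in gland CD4 T cells, and was not called (1.48-fold, adjusted p = 0.537). Pip, the prolactin-induced protein, stood at 12.03, 11.85 and 11.64 against 10.55 to 11.30 with a median of 10.97 (1.81-fold, adjusted p = 0.134), and Mucl2 at 12.30, 12.30 and 12.30 against 10.83 to 11.85 (1.86-fold). With its probe sets averaged Pip was higher in the sort (7.29-fold, adjusted p = 1.58e-06), so its small difference rests on the probe set used. Values near 12 to 13 lie at the top of the scale used, where the highest of all values is 12.95. Obp1a, an odorant-binding protein, stood at 12.41, 12.20 and 12.22 against 11.01 to 11.47, called at 2.05-fold with all arrays (adjusted p = 0.0108) and 1.96-fold without array 1, where it was not called. Several of these genes have near-identical relatives, so their probe sets may not tell family members apart.

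Other secretory genes did separate the groups. Car6, the secreted carbonic anhydrase, stood at 11.88, 11.86 and 11.70 against 6.89 to 10.19 with a median of 7.61 (12.5-fold, adjusted p = 0.000479). Lpo, lactoperoxidase, stood at 11.63, 11.54 and 11.29 against 5.85 to 9.34 with a median of 7.87 (12.2-fold, adjusted p = 0.000109), and lactoferrin, Ltf, at 11.98, 12.23 and 12.09 against 7.34 to 10.26 (7.72-fold). Egf, made by the gland for the ocular surface, stood at 9.15, 9.35 and 8.99 against 5.08 to 5.83 (12.8-fold, adjusted p = 9.13e-13). Prss8, a membrane protease that activates sodium channels, was 31.5-fold higher, and Prol1 14.5-fold. Pigr, the receptor that carries dimeric IgA across epithelium, stood at 9.38, 8.9 and 8.7 against 5.6 to 7.48 (6.02-fold, adjusted p = 1.39e-06). Cst3 was at 11.05, 11.08 and 11.28 and not called.

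A few secretory genes split the epithelial arrays instead. Amy1, salivary amylase, stood at 9.29, 10.94 and 3.27 in epithelial arrays 1, 2 and 3, at 2.51, 2.41, 2.87 and 2.33 in gland B cells and at 1.73, 4.21, 9.6 and 2.36 in gland CD4 T cells. Its epithelial and lymphocyte arrays therefore overlapped. Arrays 1 and 2 of the sort and array 3 of CD4 T cells were far above the rest. Gland CD4 T cell array 2, at 4.21, and spleen B cell array 3, at 3.95, lay above epithelial array 3. Bpifa2, the parotid secretory protein, stood at 9.73, 10.62 and 2.13 in the sort and at 1.69, 5.10, 9.52 and 1.82 in CD4 T cells. Smr3a, a submaxillary peptide precursor, followed at 9.76, 11.02 and 3.04 in the sort and 2.67, 5.11, 9.66 and 2.52 in CD4 T cells. Cst10 stood at 8.97, 10.71 and 2.07 and at 2.26, 2.99, 8.96 and 2.24. Some B cell arrays were raised to a lesser degree. Bpifa2 stood at 4.55 in gland B cell array 3, against 2.10 to 2.24 in the other gland B cell arrays, and at 4.31 in spleen B cell array 3. Smr3a stood at 4.65, 2.57 to 2.73 and 4.23 in the same order. Amy1, Bpifa2 and Smr3a are best known from salivary glands. Chia1, an acidic chitinase, stood at 8.76, 11.14 and 3.13 in the sort and at 2.97, 4.63, 10.09 and 3.45 in CD4 T cells. Dcpp3, the demilune cell and parotid protein, stood at 10.58, 11.02 and 4.45 in the sort, at 3.32, 5.83, 9.08 and 8.79 in gland CD4 T cells and at 4.39, 10.34 and 4.47 in spleen CD4 T cells. Dcpp3 was thus high in 1 spleen array as well. Amy1, Cst10 and Smr3a were called with all arrays (adjusted p = 0.0177, 0.0295 and 0.0339) but neither without array 1 nor without array 2. The Amy1 difference was 4.33 with all arrays, 3.6 without array 1 (adjusted p = 0.0846), 2.78 without array 2 (adjusted p = 0.147) and 6.61 without array 3 (adjusted p = 0.000594). That of Cst10 was 3.11, 2.23 and 6.55 in the same order, against 3.97, and that of Smr3a 2.95, 2.32 and 6.31, against 3.86. All 3 calls were also lost with array weights, with the replicate block and when B cells and CD4 T cells each had to pass. These 6 genes were picked out after their values were seen, as the largest gaps between array 3 and both others, and the split itself was not tested. Without array 1 the secretory list had 14 genes higher in place of 21, and without array 2 it had 15.

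**Figure D3:**
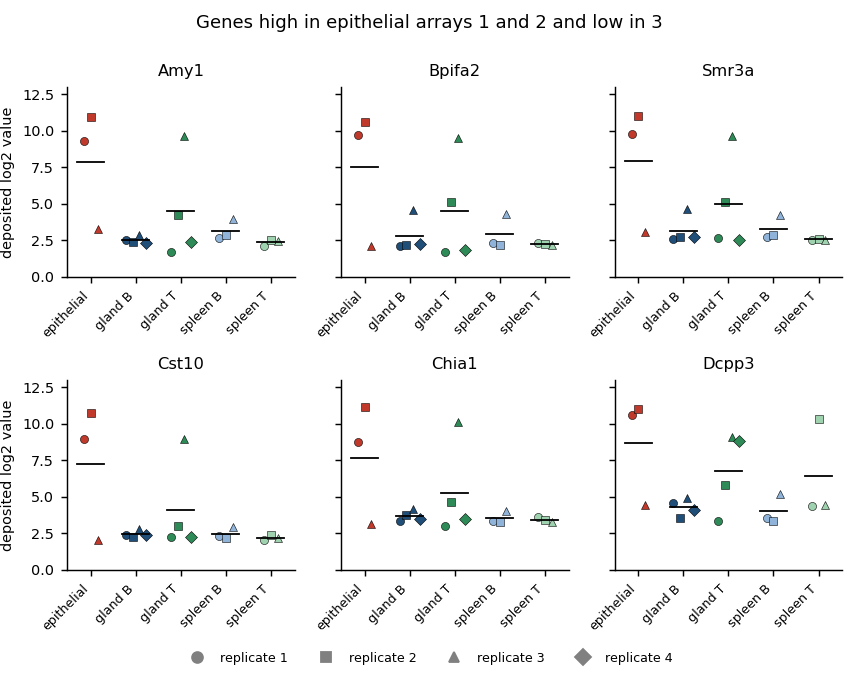
Deposited log2 values (y axis) of 6 secretory genes in each array by group (x axis); each point is 1 array, its shape the replicate number, and the bar the group mean. Epithelial arrays 1 and 2 and gland CD4 T cell array 3 stand between 8.76 and 11.14, and epithelial array 3 between 2.07 and 4.45.

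Array 3 was not low in the duct list, whose mean level was 7.28, 7.56 and 7.93 in arrays 1, 2 and 3. It was the highest array for Krt19 at 5.88, 6.43 and 7.68, Cldn4 at 6.21, 6.84 and 8.03, Wfdc2 at 7.59, 7.55 and 8.66 and Cp at 7.77, 8.14 and 9.01. These genes are named here for being highest in array 3, whereas the duct gene Kit was highest in array 2. Array 3 was also the highest for the alarm cytokines Il33 and Tslp and for the matrix genes Col1a1 and Dpt. The mean level of the development and acinar factor list was 6.95, 6.92 and 6.87, with Bhlha15 at 11.14, 10.79 and 10.65 and Xbp1 at 10.35, 10.58 and 10.30.

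Of 65 genes of folding and translocation in the endoplasmic reticulum 26 were higher and 0 lower (median 0.89), and 23 without array 1. Derl3, which draws misfolded proteins out of the reticulum, stood at 9.82, 8.64 and 8.79 against 5.2 to 6.59 with a median of 5.79 (9.15-fold, adjusted p = 4.85e-08). Agr2, a disulphide isomerase of mucus-making cells, was 12.5-fold higher, Pdia5 6.16-fold, and the cargo receptors Lman1 and Tmed3 4.86-fold and 5.27-fold. Dnajc3, a co-chaperone, stood at 11.07, 10.61 and 10.70 against 8.73 to 9.46 (3.16-fold, adjusted p = 1.06e-09). Several chaperones were not called. Hspa5, the BiP chaperone, stood at 10.74, 10.57 and 10.38 against 10.35 to 10.58 (1.09-fold, adjusted p = 0.159), and the calcium-binding chaperone Calr at 11.52, 11.28 and 11.26 against 10.81 to 11.16 (1.32-fold). Of 17 sensors and effectors of the unfolded protein response, 6 were higher and 2 lower. The sensor Ern1, which splices Xbp1 mRNA, was 3.94-fold higher, but 1.44-fold and not called with its probe sets averaged. Xbp1 stood at 10.35, 10.58 and 10.30 against 8.09 to 8.57 (4.5-fold, adjusted p = 1.02e-11), and the related factors Creb3l1 and Creb3l2 were 9.2-fold and 6.44-fold higher. Atf4 and Ppp1r15a of the translation-control arm were not called.

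The endoplasmic reticulum stress element, CCAAT followed after any 9 bases by CCACG, is bound by NF-Y together with ATF6 or XBP1. It was searched on both strands of RefSeq promoters (GRCm38.p6), which run from 250 bases before to 50 after each start. It lay in 10 of the 56 list members with a promoter there, against 0.137% of all 27025 genes in that table. Of the 22 called members 2 held it, Derl3 and Dnajc3, and of the 34 not called 8 did, Hspa5 and Calr among them. These 4 windows are shown because they set called beside uncalled genes with the same element, which is in capitals, and each is written along its own gene. They lie at chr10:75893196-75893306 on the plus strand, chr14:118937781-118937891 on the plus strand, chr2:34771979-34772089 on the plus strand and chr8:84847029-84847139 on the minus strand.
Derl3: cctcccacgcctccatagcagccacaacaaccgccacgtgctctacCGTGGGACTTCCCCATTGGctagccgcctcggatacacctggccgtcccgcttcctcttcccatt
Dnajc3: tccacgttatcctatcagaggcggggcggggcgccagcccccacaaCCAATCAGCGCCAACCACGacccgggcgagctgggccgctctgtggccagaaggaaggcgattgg
Hspa5: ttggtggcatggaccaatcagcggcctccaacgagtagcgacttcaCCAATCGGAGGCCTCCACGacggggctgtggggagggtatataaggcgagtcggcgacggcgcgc
Calr: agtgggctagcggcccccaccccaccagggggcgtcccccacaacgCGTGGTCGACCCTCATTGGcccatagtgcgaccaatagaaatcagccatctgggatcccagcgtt
Dnajc3 and Hspa5 carry the element in the gene's own direction, Derl3 and Calr in the reverse one. A match is a description of letters and shows no binding.

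Of 31 genes of secretory granules 6 were higher and 2 lower, 19.4% and 6.45% against 14.9% and 9.81% of all genes. Cpe, the carboxypeptidase of regulated granules, stood at 9.64, 9.9 and 9.9 against 2.73 to 4.89 (76.1-fold, adjusted p = 3.23e-13). Rab27b and Myo5c, which move secretory vesicles in exocrine cells, were 17.7-fold and 26-fold higher, while Unc13d, the priming factor of cytotoxic granules, was 10.5-fold lower. The vesicle fusion genes Vamp8 and Stxbp2, shared by gland and blood cells, stood within 1.29-fold and 1.3-fold.

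For fluid transport, 20 of 51 water and ion transport genes were higher and 0 lower (median 0.68). Aqp5, the water channel of the acinar apical membrane, stood at 10.74, 10.87 and 10.81 against 6.75 to 7.48 with a median of 7.03 (13.4-fold, adjusted p = 3.74e-11). Ano1, the calcium-gated chloride channel, stood at 9.66, 9.9 and 9.88 against 4.42 to 6.58 with a median of 5.84 (17.6-fold, adjusted p = 9.03e-08). Slc12a2, which loads acinar cells with chloride, stood at 11.17, 11.31 and 11.23 against 7.44 to 8.92 (7.62-fold). The largest increase of the list was Aqp1, at 9.16, 9.68 and 9.08 against 3.12 to 5.36, a water channel found in capillaries and in myoepithelium. Slc5a8, Fxyd3 and Kcnk1 were 34.4-fold, 25.4-fold and 16.2-fold higher. Kcnn4, a calcium-gated potassium channel used by both acini and activated T cells, stood at 9.66, 10.25 and 10.01 in the sort, between B cells at 6.11 to 7.27 and CD4 T cells at 10.42 to 10.53. Cftr, a chloride channel of ducts, stood at 4.25, 4.48 and 4.96 and missed the fold minimum at 1.77-fold (adjusted p = 1.16e-05).

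Of 36 secretagogue receptor and calcium signalling genes 10 were higher and 6 lower, and 6 higher when arrays were centred on their medians. Chrm3, the muscarinic receptor that drives tear secretion, stood at 4.36, 4.06 and 4.57, under the median of all values, against 2.49 to 3.06 (2.78-fold, adjusted p = 7.48e-09). Ghr, the growth hormone receptor, and Tac1, the precursor of substance P, were 51.5-fold and 32.7-fold higher, Tac1 at 8.65, 9.08 and 9.1. Plcb4, a phospholipase that acts under such receptors, was 14.9-fold higher. On the lymphocyte side, the calcium genes Itpr2 and Orai2 were 4.62-fold and 7.1-fold lower in the sort, with Itpr2 still at 7.59, 7.2 and 7.38.

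Of 24 myoepithelial and basal genes, 22 were higher and 0 lower (median 3.0). Acta2, smooth muscle actin, stood at 11.42, 11.49 and 11.02 against 4.66 to 5.28 with a median of 4.9 (82.1-fold, adjusted p = 3.17e-15). Myl9 and Mylk, the light chain and its kinase, were 78.5-fold and 52.1-fold higher, Tpm2 84.2-fold and the hemidesmosomal collagen Col17a1 22.6-fold. Cnn1 and Myh11, of contractile cells, stood at 5.74, 5.86 and 5.46 and at 5.53, 6.01 and 5.65, and were 5.2-fold and 2.06-fold above lymphocytes. Oxtr, the oxytocin receptor of contractile cells, was at 4.94, 5.67 and 4.79 (2.63-fold, adjusted p = 2.96e-07). Vessel wall muscle shares the contractile genes, but not Krt14, Krt5, Trp63 and Col17a1. The part of vessel wall muscle RNA in the contractile gene values was not tested.

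Of 22 duct genes, 16 were higher and 1 lower (median 3.0, and 3.32 without array 1). Kit, which marks intercalated duct cells in salivary glands and also mast cells, stood at 7.7, 8.08 and 8.03 against 2.49 to 3.28 (34-fold, adjusted p = 1.32e-13). Of 16 neutrophil and mast cell markers 2 were higher, Kit and Gata2, and 0 lower. The higher share of 12.5% lay near the 14.9% of all genes. Gata2, a factor of mast cells and of endothelium, stood at 7.88, 8.36 and 8.44 against 4.21 to 4.55 (14.4-fold, adjusted p = 7.47e-14). The mast cell genes Tpsb2 and Hdc stood at 3.9, 3.91 and 4.02 and 4.45, 4.57 and 4.64, under the median and not called. The mean level of the list was 3.71, 3.7 and 3.63 in the sort, 3.14 to 3.27 in gland B cells and 3.12 to 3.23 in gland CD4 T cells, and the part of these cells in the Kit value was not tested. Lcn2, an iron-sequestering defence protein, stood at 10.61, 10.88 and 11.21 against 4.29 to 7.8 (28.1-fold, adjusted p = 5.78e-05), and Prom1 was 30.1-fold higher. Muc1 and Aqp3 were not called.

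Of 30 basement membrane and integrin genes 22 were higher and 0 lower (median 2.3), and 24 higher without array 1. Col4a1, a chain of network-forming collagen, stood at 11.34, 11.98 and 11.41 against 4.17 to 5.02 with a median of 4.53 (133-fold, adjusted p = 2.1e-16), with Col4a2 beside it at 10.11, 10.68 and 10.18. Col4a5 and Col4a6, chains of epithelial basement membranes, were 16-fold and 19.2-fold higher. Itgb1 and Itgav, which lymphocytes share, were within 1.05-fold and 1.27-fold. Of 47 genes of Wnt, Fgf, Bmp and Hedgehog signalling, 26 were higher and 0 lower (median 1.92). Sfrp1, a secreted Wnt inhibitor, stood at 10.40, 10.41 and 10.42 against 3.95 to 4.54 (73-fold, adjusted p = 5.26e-15), and the Wnt receptor Fzd7 was 44-fold higher. Wwtr1, the TAZ co-activator, and the targets Ccn1 and Ccn2 were 57.8-fold, 57.8-fold and 44.8-fold higher. Of 16 genes of the EGF receptor family and its ligands 9 were higher and 0 lower. Erbb3 stood at 10.02, 10.01 and 10.30 against 6.0 to 7.67 (8.97-fold) and the ligands Nrg4 and Hbegf were 13.3-fold and 12.7-fold higher, while Egfr itself stood at 5.36, 5.03 and 5.48 against 5.37 to 5.77. Egfr was higher with its probe sets averaged (3.52-fold). With probe sets averaged, Wwtr1, Fzd7 and Erbb3 were only 8.98-fold, 6.4-fold and 2.99-fold higher, each still called. Of 20 Notch pathway genes, 7 were higher and 3 lower, 35% and 15% against 14.9% and 9.81% of all genes. Notch4, an endothelial receptor, and Hey1 were 19.8-fold and 15.6-fold higher, and Notch1, shared with T cells, was not called.

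Of 25 epithelial cytokine genes 8 were higher and 3 lower. Il33, a nuclear alarm cytokine, stood at 7.2, 7.45 and 8.69 against 2.36 to 2.89 with a median of 2.76 (33.2-fold, adjusted p = 1.56e-11), and Tslp at 5.49, 5.48 and 6.82 against 2.23 to 2.8 (11-fold). Tnfsf13, the APRIL gene that keeps plasma cells alive, stood at 8.65, 8.25 and 8.29 against 3.83 to 4.99 (16.4-fold, adjusted p = 6.43e-11). Its relative Tnfsf13b, the BAFF gene, stood at 5.99, 4.18 and 4.39, highest in array 1, and was not called with all arrays but was lower without that array (2.94-fold, adjusted p = 1.3e-06). Of 35 chemokine genes, 13 were higher and 5 lower, and 7 lower without array 1. Cxcl1 and Cxcl2, which draw neutrophils, were 45.1-fold and 26.4-fold higher, with Cxcl1 at 8.37, 8.6 and 8.69 against 2.77 to 3.79. Cxcl17, a mucosal chemokine, stood at 10.31, 10.61 and 10.73 against 4.1 to 6.44 (35-fold, adjusted p = 4.92e-10), and Ccl28, which guides IgA-secreting cells to glands, at 9.69, 9.71 and 9.79 against 4.4 to 6.64 (19.3-fold, adjusted p = 2.17e-07). Cxcl10, an interferon-induced attractant of T cells, stood at 6.65, 6.11 and 7.54 in the sort, above gland B cells at 5.62 to 6.01 and below CD4 T cells at 8.58 to 9.0, and was not called. Ccl5 and Xcl1 were at 9.27, 6.11 and 6.41 and 9.83, 4.36 and 4.34, high in array 1.

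Of 23 complement genes, 7 were higher and 3 lower, 30.4% and 13% against 14.9% and 9.81% of all genes. The inhibitors Serping1 and Cd59a were 13.7-fold and 6.2-fold higher, while Cd55, a brake on convertases, was 12.7-fold lower, at 5.4, 4.81 and 5.41 against 7.29 to 10.27. Of 28 antimicrobial and mucosal defence genes 9 were higher and 1 lower, led by Lcn2 and by Dmbt1, a mucosal scavenger protein, at 11.67, 11.94 and 12.00 against 5.4 to 9.25 (18.5-fold, adjusted p = 2.53e-05). Of 14 autoantigen genes of Sjögren's syndrome, 5 were higher, Aqp5, Car6, Ro60, Hspa1b and Chrm3, and 1 lower, Ifi204. Ro60, the target of anti-Ro antibodies, stood at 7.88, 7.71 and 7.72 against 5.16 to 6.16 (3.6-fold, adjusted p = 6.81e-08), and Ssb, the La antigen, at 10.09, 9.91 and 10.10 against 9.92 to 10.40, within 1.12-fold. Ifi204 was no longer called without epithelial array 3.

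Of 32 shared leukocyte genes, 31 were lower and 0 higher, with a median of -4.43, and -5.31 without array 1. Among the 15 named decreases were Irf4, Btla, Gpr171, Cd69, Ifi209, Arhgap30, Cd37, Ms4a6b, Gimap3, Ptprc, Pou2af1, Ms4a6c, Tbc1d10c, Cd83 and P2ry10. Irf4, a factor of activated lymphocytes and plasma cells, stood at 6.1, 3.47 and 3.25 in the sort and from 10.81 to 11.65 with a median of 11.34 in lymphocytes, a difference of -6.98 ± 0.39 (SE), or 127-fold lower (adjusted p = 2.22e-10). Btla, an inhibitory receptor, stood at 4.07, 2.86 and 2.67 against 9.2 to 10.77 (108-fold lower, adjusted p = 1.59e-13). Array 1 was the highest of the epithelial arrays for each of these 15 genes, so their fitted differences understate the gap of arrays 2 and 3. For Ptprc the difference was -6.1 ± 1.03 (SE) with all arrays and -8.5 without array 1. Lcp1, the actin bundler called L-plastin, was the shared gene not called, at 10.63, 10.02 and 10.35 against 11.06 to 11.17, and was lower with its probe sets averaged (2.53-fold).

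Of 17 B cell identity genes, 12 were lower and 3 lay between the groups (median -3.67), and 14 were lower without array 1. Pou2af1, a co-activator of immunoglobulin genes, stood at 3.9, 3.56 and 2.23 in the sort, 10.21 to 10.31 in B cells and 8.21 to 8.57 in CD4 T cells. Ms4a1, the CD20 gene, stood at 4.23, 2.92 and 2.87, near the CD4 T cell range of 2.82 to 4.84 and far under B cells at 11.01 to 11.14. Ebf1, a factor of early B cells and of stroma, stood at 7.7, 8.45 and 8.16 against 9.17 to 9.49 in B cells and 3.11 to 3.47 in CD4 T cells. Of 19 T cell identity genes 10 were lower and 8 lay between the groups, but 16 were lower without epithelial array 1 and 6 without array 3. Cd4 stood at 4.69, 4.15 and 4.33 in the sort and Cd3e at 7.07, 4.24 and 4.2, against 10.53 to 10.71 and 9.86 to 10.11 in CD4 T cells. Cd3e was thus raised in array 1. Of 13 plasma cell markers 4 were lower and 4 higher, the higher ones including Xbp1, Derl3 and Eaf2, which secretory epithelium also uses. Jchain, which joins IgA dimers, stood at 7.0, 2.9 and 3.09 against 8.32 to 9.86.

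Of 13 genes of MHC class II presentation 12 were lower and 0 higher (median -3.45), and 7 were lower when B cells and CD4 T cells each had to pass. H2-Aa stood at 7.85, 3.14 and 4.8 in the sort, 11.80 to 11.88 in B cells and 7.35 to 7.72 in CD4 T cells, and H2-Eb1 at 8.22, 5.08 and 5.04. Arrays 2 and 3 were thus below both lymphocyte kinds. Ciita, the class II master regulator, stood at 4.24, 3.5 and 3.8, near CD4 T cells at 3.61 to 4.4. Ifi30, a lysosomal reductase of this path, was not called, at 9.78, 9.75 and 9.9. Of 16 class I genes 8 were lower and 0 higher (median -1.0). The immunoproteasome genes Psmb9 and Psmb8 stood at 7.39, 7.11 and 7.21 and 8.82, 8.71 and 8.7, 6.32-fold and 4.67-fold under lymphocytes (adjusted p = 4.16e-11 and 1.17e-12). H2-D1, a classical class I gene, was within 1.4-fold, at 10.41, 10.59 and 10.23.

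Of 18 interferon gamma GTPases and targets, 9 were lower and 0 higher (median -1.05). Cd274, the PD-L1 gene, stood at 7.47, 6.36 and 6.65 against 9.6 to 10.10 with a median of 9.98 (8.72-fold lower, adjusted p = 1.22e-10), and the GTPase gene Igtp at 7.8, 8.03 and 7.62 against 9.57 to 10.98 (5.77-fold lower). Irf1 stood at 10.34, 10.34 and 10.58 against 10.70 to 11.02 and missed the fold minimum. Of 23 type I interferon response genes 9 were lower and 2 higher (median -0.76). Mx1 stood at 6.91, 5.11 and 5.63 against 7.29 to 10.16 with a median of 9.34 (9-fold lower, adjusted p = 2.25e-05) and Zbp1 at 6.67, 5.48 and 5.4 against 8.96 to 10.48 (15.9-fold lower). Ifit3, at 8.69, 9.11 and 8.71, lay inside the lymphocyte range of 7.0 to 10.44. Of 19 Toll-like and nucleic acid sensors, 4 were lower, among them Tlr7 at 4.28, 2.79 and 2.99 and Tlr1 at 6.18, 4.36 and 4.56. Tlr3, the sensor of double-stranded RNA, was the higher one, at 10.13, 10.57 and 10.39 against 5.99 to 8.96 with a median of 7.48 (6.69-fold, adjusted p = 4.48e-07).

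Of 26 Bcl2 family and death receptor genes 6 were higher and 7 lower, 23.1% and 26.9% against 14.9% and 9.81% of all genes. Bcl2l2, a survival gene, stood at 9.75, 9.35 and 9.52 against 6.06 to 7.29 (7.44-fold), and Tnfrsf1a, the first receptor for tumour necrosis factor, was 6.53-fold higher. The mean of the Bcl2l2 probe sets differed by 1.91-fold, under the fold minimum, so the Bcl2l2 call rests on the probe set used. Pmaip1, the death gene Noxa, stood at 5.45, 2.61 and 3.61 against 8.43 to 9.36 (35-fold lower, adjusted p = 1.39e-08), and Ripk3, needed for necroptosis, was 5.06-fold lower. Mcl1 was not called, at 11.13, 11.16 and 11.21. Of 27 cell division genes 6 were lower and 0 higher, and 3 lower when probe sets of 1 gene were averaged. Mki67, a marker of cycling cells, stood at 7.13, 7.11 and 5.95, with B cells at 5.92 to 6.85 and CD4 T cells at 8.14 to 8.49, and was not called.

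Of 38 glutathione and xenobiotic metabolism genes, 23 were higher and 1 lower (median 1.29). Aox3, an aldehyde oxidase, stood at 10.13, 10.75 and 10.96 against 3.17 to 5.87 with a median of 4.37 (78.2-fold, adjusted p = 1.5e-09), and Ugt1a6a, Cbr2, Gsta4 and Cyp2f2 were 50.4-fold, 39.9-fold, 37.3-fold and 34.6-fold higher. Gstp1 and Gpx1 were within 1.19-fold and 1.44-fold. Of 30 lipid synthesis genes 14 were higher and 1 lower. Lpl, the lipase held on capillaries, stood at 8.67, 8.72 and 8.69 against 3.12 to 3.91 (39.9-fold), Dgat2, which makes triglyceride, was 14.7-fold higher, and Scd1 was shared with B cells, at 10.75, 10.40 and 10.59 and 11.56 to 11.70. Of 26 steroid and retinoid handling genes 9 were higher and 2 lower, with Aldh1a1, which makes retinoic acid, at 7.04, 6.91 and 8.0 against 2.36 to 4.03 (21.5-fold, adjusted p = 5.07e-09). The 51 ribosomal protein genes had no call either way and a median of -0.27, and of 39 respiratory chain genes only Ndufa9 was called (2.07-fold, adjusted p = 3.17e-09).

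Some genes of natural killer and cytotoxic cells were higher in epithelial array 1 than in any gland lymphocyte array. Of 13 natural killer and CD8 T cell markers, 5 were above all 8 gland lymphocyte arrays in array 1. These 5 were also at least 1 log2 unit above arrays 2 and 3. The same held for 10 of 24 myeloid markers and 4 of 23 complement genes, so it was not particular to the natural killer and CD8 list. The 10 genes by which array 1 most exceeded the mean of arrays 2 and 3 included Gzma, Ptprc, Cd69, Il2rb, Klrd1, Nkg7 and Ctsw. Of the genes just named, all but Gzma and Klrd1 were lower in array 1 than in every gland CD4 T cell array. Il2rb, for example, stood at 8.86 against 10.42 to 10.50. Gzma, the granule protease granzyme A, stood at 9.47, 2.16 and 2.08 in the sort, 2.09 to 3.86 in gland B cells and 5.26 to 6.46 in gland CD4 T cells. Klrd1, the CD94 receptor, stood at 8.58, 2.15 and 2.18 against 3.56 to 6.9 in the gland lymphocyte arrays and 7.23 to 7.57 in spleen CD4 T cells. Ncr1, the NKp46 gene whose product both lymphocyte gates exclude, stood at 6.27, 1.99 and 1.9 in the sort and 1.96 to 2.16 in lymphocytes. Array 1 was thus the only gland array raised for it. Of the 355 genes raised in array 1, 77 exceeded all 8 gland lymphocyte arrays, and 275 lay below every gland lymphocyte array in arrays 2 and 3.

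The mean level of 13 natural killer and CD8 T cell markers was 6.6, 3.37 and 3.22 in epithelial arrays 1, 2 and 3, against 3.89 to 4.48 in gland B cells and 5.76 to 5.9 in gland CD4 T cells. That of 24 myeloid markers was 6.07, 4.17 and 4.27, against 4.97 to 5.59 and 4.92 to 5.03. Array 1 was above all gland lymphocyte arrays for both lists. The macrophage genes C1qa and Csf1r stood at 6.27, 4.32 and 4.04 and 5.31, 3.77 and 3.91 in the sort. Shared leukocyte genes had a mean level of 7.44, 4.33 and 4.28, T cell identity genes of 5.36, 3.63 and 3.67 and B cell identity genes of 4.86, 4.1 and 3.94. The part of leukocyte RNA in array 1 in these results was not tested. Of the natural killer and CD8 list 2 were lower with all arrays, 8 without array 1, 1 without array 2 and 0 without array 3. Of the myeloid list, 4 were lower and Cd14, a lipopolysaccharide co-receptor, was higher (10.2-fold), and without array 1, 2 or 3 the lower count was 9, 2 or 1. Array 1 was at least 1 log2 unit below both other arrays for 44 genes, led by Plekhh2, Fn1 and Nrsn1, and Fn1, fibronectin, was at 4.53, 6.41 and 6.54.

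**Figure D4:**
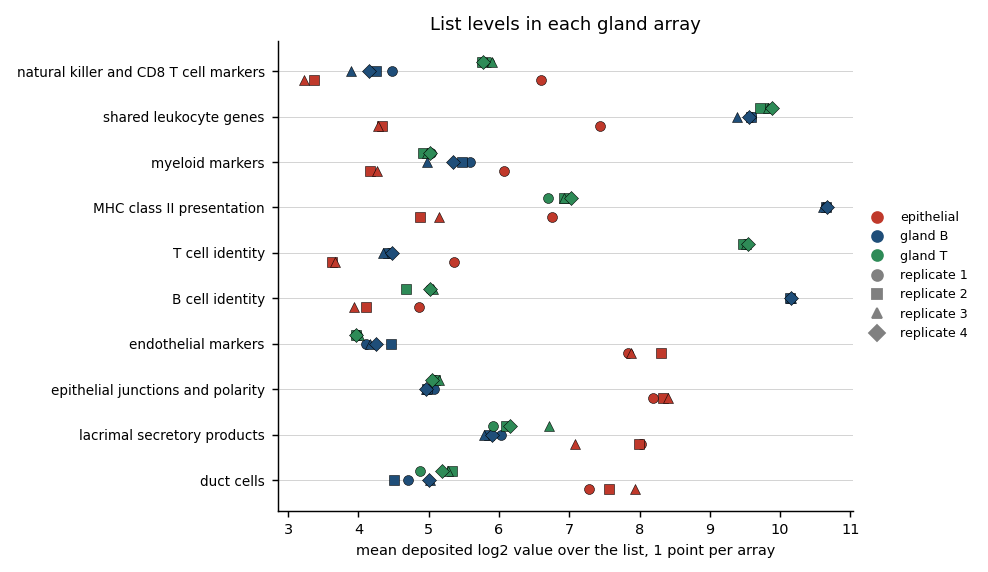
Mean deposited log2 value over each gene list (x axis) in each gland array, coloured by group, with the replicate number as the shape. Epithelial array 1 (circle) lies right of arrays 2 and 3 for the 6 leukocyte lists, whereas the endothelial list stood at 7.84, 8.3 and 7.88 in arrays 1, 2 and 3.

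Spleen lymphocytes gave another view of the same 3 epithelial arrays. Because both comparisons use those arrays, their values are set side by side and no overlap of calls was tested. Against spleen, 2673 genes were higher and 1836 lower, or 15.6% and 10.7% of genes. The largest increases then were Sval2, Cldn8, Car6, Ehf, Nupr1, Obp1a, Foxc1, Lpo, Dnase1 and Slc27a2. Obp1a was 319-fold above spleen lymphocytes and 2.05-fold above gland lymphocytes, with spleen arrays at 2.46 to 4.81 and gland lymphocyte arrays at 11.01 to 11.47. Sval2, a seminal vesicle antigen-like secretory gene, was 516-fold above spleen lymphocytes and 3.84-fold above gland lymphocytes. Krt18 was 196-fold and 10.9-fold, and Pip 137-fold and 1.81-fold. Vessel genes did not shift in this way, since Tek was 199-fold above spleen and 169-fold above gland lymphocytes, and Cavin2 223-fold and 195-fold. The median of the secretory list was 3.47 against spleen and 1.02 against gland lymphocytes, that of junction genes 4.77 and 3.56, and that of endothelial markers 4.34 both ways. Epithelial RNA in the gland lymphocyte arrays was not tested as the source of these differences.

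**Figure D5:**
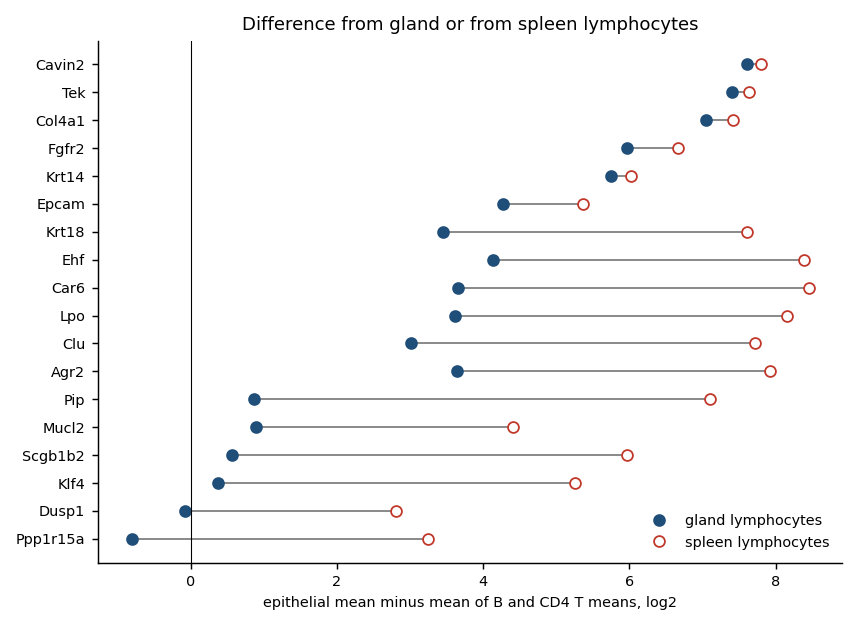
Difference of the epithelial mean from gland lymphocytes (filled) and from spleen lymphocytes (open) for 18 genes, on the log2 scale (x axis). Vessel genes at the top lie close together under both references, and secretory and immediate early genes at the bottom lie further right against spleen.

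Immediate early and interferon genes depended on the reference as well. Of 27 immediate early genes 2 were higher and 6 lower than in gland lymphocytes, whereas 16 were higher and 3 lower than in spleen. Dusp1, a phosphatase that ends stress kinase signals, stood at 11.40, 11.33 and 11.49 in the sort, 11.39 to 11.66 in gland lymphocytes and 8.02 to 8.99 in spleen. Fos, the AP-1 subunit, stood at 11.75, 11.77 and 11.75, 10.92 to 11.60 and 5.43 to 7.01 in the same order. Gland lymphocytes were thus far nearer to the sort than spleen lymphocytes were for both genes. Atf3 and Ier3 were higher even against the gland, at 9.52-fold and 27.2-fold (adjusted p = 5.94e-06 and 8.32e-10), and Gadd45b was 3.98-fold lower against the gland and 0.28 above spleen on the log2 scale. Of the 23 type I interferon genes, 9 were higher and 1 lower than in spleen. Gland and spleen differ here in tissue, in the age that the series description gives and in the digestion described, and these cannot be told apart.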

How the data were processed

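Male NOD mouse cells sorted from lacrimal gland and spleen were profiled on 17 arrays. The authors deposited log2 values, 1 per probe set, made with RMA and Partek per the submitters' processing notes; background, normalization settings and scan batches are not given in the sources used here. RNA was isolated, amplified and biotin labelled per the labels' protocols, and RNA quality numbers could not be tied to arrays. Of 45141 probe sets, 28898 named exactly 1 gene, and the one with the highest mean over the 17 arrays stood for each of 17097 genes; 551 named several genes, 15588 are not named here and 104 were controls, and all of these were left out. Changes of very dim and very bright genes can be understated on arrays.

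Differences were tested with limma 3.58.1 in R 4.3.3 (lmFit and eBayes) on 5 group means over all 17 arrays, with 12 residual and 3.17 prior degrees of freedom and Benjamini-Hochberg adjustment over all genes. The median standard error was 0.108, and the number of arrays limits this precision. The pipeline was tested on simulated data. Genes named were the 20 largest increases and 15 largest decreases without overlap, leaving out receptor segments and unnamed models; up to 6 called and 3 uncalled members of each list; gate antigens and fixed cell type markers; the 10 genes most different in epithelial array 1, in each direction; and 10 genes whose epithelial mean lay between both lymphocyte means. A few others, such as Slc12a2, Oxtr, Fos, Tnfsf13b, Dnajc3, Hspa5, Cp, Cftr, Lyve1, Dcpp3, Chia1, Bpifa2 and those with the largest changes against spleen, were chosen after their values were seen. The comparison and the 46 gene lists were chosen with earlier results of these data known. Of 1257 distinct list genes 1093 were measured. Alternatives covered thresholds, probe set choice, scaling, weights, the replicate number as a block, the reference and each array left out.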

Additional observations from a re-analysis of the deposited data

Results flagged for a closer look

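In 162 checks of groups of 4 arrays, 12 had 1 array standing apart from the other 3 by a gap above Dixon's critical value, and chance alone gives about 1 in 20. All are gland lymphocyte arrays, since the epithelial group of 3 is too small for the check. The checks share the same arrays and are not independent, so the count of 12 was not tested against the rate of chance. In gland B cells, Cavin2 stood at 3.24 in array 2 (others 2.52 to 2.61) and Col4a1 at 5.02 in array 3 (others 4.72). In gland CD4 T cells, Flt1 stood at 3.65 in array 3 (others 3.19 to 3.26), the endothelial marker list at 4.01 in the same array (others 3.97 to 3.98) and Btla at 9.53 in array 2 (others 9.20 to 9.25). Beside the epithelial levels of these vessel genes, near 10 to 12, the excesses are small.

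In gland B cell array 3, Toll-like and nucleic acid sensors stood at 5.85 (others 6.23 to 6.31), shared leukocyte genes at 9.39 (others 9.56 to 9.59) and the Notch pathway at 6.02 (others 5.94 to 5.95). In gland B cell array 2, Bcl2 family genes stood at 6.34 (others 6.28 to 6.29). In gland CD4 T cell array 2, the unfolded protein response list stood at 6.88 (others 6.76 to 6.78), MHC class I presentation at 9.58 (others 9.69 to 9.71) and B cell identity genes at 4.67 (others 5.02 to 5.06).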

How the results depend on the processing

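The counts of 2540 higher and 1677 lower genes rose to 4569 and 6041 with no fold minimum, and to 4024 and 3004 over every probe set with 1 gene, where 28898 features were tested. When B cells and CD4 T cells each had to pass, they were 2196 and 1105. The other alternatives stayed within 1.5 times. Leaving out 1 array gave 2499 to 2597 higher and 1615 to 1773 lower genes. Centring arrays on their medians moved the median difference of all genes from -0.10 to -0.26 and gave 2290 higher and 2165 lower genes (51.4% higher against 60.2%), and quantile normalization gave 2322 and 2136. With the replicate number as a replicate block in the gland arrays, the counts were 2538 and 1650. Same-numbered arrays of 2 groups had deviations from their group means correlated from -0.397 to 0.215. With so few arrays per group, this cannot show whether same-numbered arrays share mice. Of 266 named genes called, 43 lost the call under at least 1 alternative, most often with both lymphocyte kinds required (28) or with spleen as the reference (22). Of these results the Gadd45b difference (log2) alone reversed, from -1.99 to 0.279 against spleen lymphocytes, where the tissue differs. The medians of the immediate early, type I interferon, unfolded protein response, red cell, myeloid and secretagogue lists changed sign against spleen, and those of the complement, epithelial cytokine, plasma cell, myeloid, secretagogue, fat, Schwann, antimicrobial and neutrophil lists under another alternative. The cause was not tested. Without detection calls, dim genes cannot be told from background.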
